A study of Mus musculus with 7 samples.

Results

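Interferon-stimulated genes are the genes that cells switch on after interferon binds its receptors, and 36 of them were followed here across 7 mammary gland arrays. The members were fixed as a list of 36 gene symbols, and each gene was read from the probe set annotated to that gene alone with the highest mean log2 signal over the 7 arrays. Of the 36, 34 were measured, among 18193 genes in all, and 32 had a mean signal at or above 57.7, the level a gene needed to enter the test, as did 12497 genes in all. Isg15 and Ifi44 were not analysed here, because no probe set carried either symbol alone. Oas3 and Mx2 were measured but too dim for the test, reaching 57.7 on 1 and 3 of the 7 arrays. Mx1 reached it on 6 arrays and the other 31 tested members on all 7. The gene printed as Ddx58, which encodes the RNA sensor RIG-I, is now named Rigi.

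The samples were mammary glands of virgin female FVB/PyV-Mt mice at 8 weeks of age. All of them carried PyV-MT, a transgene of the middle T oncogene of polyoma virus that gives rise to mammary tumours, so no gland without it was compared. From 4 weeks of age the mice ate for 4 weeks either control AIN93G chow (3 arrays, of 5 mice placed on the diet) or the same kind of chow with CLA at 1% (4 arrays, of 6 mice). CLA, conjugated linoleic acid, is a group of fatty acids related to linoleic acid. RNA came from whole gland, so a lower signal from fewer cells of a type and one from less RNA per cell cannot be told apart, and the sources used here do not give the promoter that drives the oncogene. The 6 luminal epithelial markers were measured on every array, with summed signals of 73597 to 90796 in control and 75458 to 85150 in CLA glands.

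Type I interferons, made by cells that sense viral or misplaced nucleic acid, signal through IFNAR, JAK1 and TYK2 to a complex that holds STAT2 and IRF9 and binds the interferon-stimulated response element (ISRE) in the promoters of antiviral genes. Interferon gamma, made by T and NK cells, acts on gamma-activated sites (GAS) and favours genes of the Gbp and Irg GTPases and of antigen processing, though each interferon induces many genes of the other. The members were therefore read as 26 antiviral genes (24 measured, 22 tested), 9 Gbp, Irg and antigen-processing genes (9 tested), and Irf1, a transcription factor in both programmes, on its own.

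RefSeq promoter windows of GRCm38.p6, from 250 bases before to 50 bases after the annotated start, were found for 27 of the 36 members. ISRE-like letters, GAAA and GAAA separated by 2 bases of any kind on either strand, stood in a window of 15 of the 27 genes (55.6%), against 3.99% of 27025 genes with a window. GAS-like letters, TTC and GAA separated by 3 bases of any kind, which read the same on both strands, stood in 8 of the 27 (29.6%), against 9.55% of all genes. Both classes held both kinds of letters. ISRE-like letters were in 10 of 18 antiviral and 5 of 8 Gbp, Irg and antigen-processing genes, and GAS-like letters in 4 and 3. Irf1 held GAS-like letters and no ISRE-like letters. Both kinds stood in the windows of Bst2, Oas1a, Igtp and Irgm2, and shared bases in Bst2 alone. The stretches below belong to the 4 genes of each class with ISRE-like letters before the start that varied most between arrays. They are printed so that the letters the members share can be seen, 5′ to 3′ on the gene's strand, with the ISRE-like letters in capitals (TTTC where they run on the other strand).
Oas3 promoter, chr5:120777700-120777759, minus strand: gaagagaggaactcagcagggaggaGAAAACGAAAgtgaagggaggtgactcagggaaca
Ifit1 promoter, chr19:34640779-34640838, plus strand: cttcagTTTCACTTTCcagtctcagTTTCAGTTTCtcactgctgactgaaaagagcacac
Rsad2 promoter, chr12:26456538-26456597, minus strand: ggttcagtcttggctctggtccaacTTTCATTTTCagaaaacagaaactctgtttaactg
Ifit3 promoter, chr19:34583382-34583441, plus strand: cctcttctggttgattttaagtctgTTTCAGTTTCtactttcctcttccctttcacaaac
Gbp3 promoter, chr3:142559980-142560039, plus strand: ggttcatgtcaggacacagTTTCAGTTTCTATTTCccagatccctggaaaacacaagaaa
Igtp promoter, chr11:58199497-58199555, plus strand: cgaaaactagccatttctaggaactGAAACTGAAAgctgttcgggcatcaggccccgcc
Irgm2 promoter, chr11:58214888-58214947, plus strand: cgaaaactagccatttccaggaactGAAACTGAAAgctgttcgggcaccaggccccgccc
Irgm1 promoter, chr11:48871421-48871469, minus strand: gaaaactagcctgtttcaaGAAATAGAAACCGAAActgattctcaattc
The Igtp and Irgm2 stretches, from neighbouring Irg genes, were identical at 57 of 59 bases (96.6%). Psmb9 and Tap1 start back to back, and their windows, which share 275 bases, held neither kind of letters. A match describes letters in a window and is not a measured binding site.

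**Figure D1:**
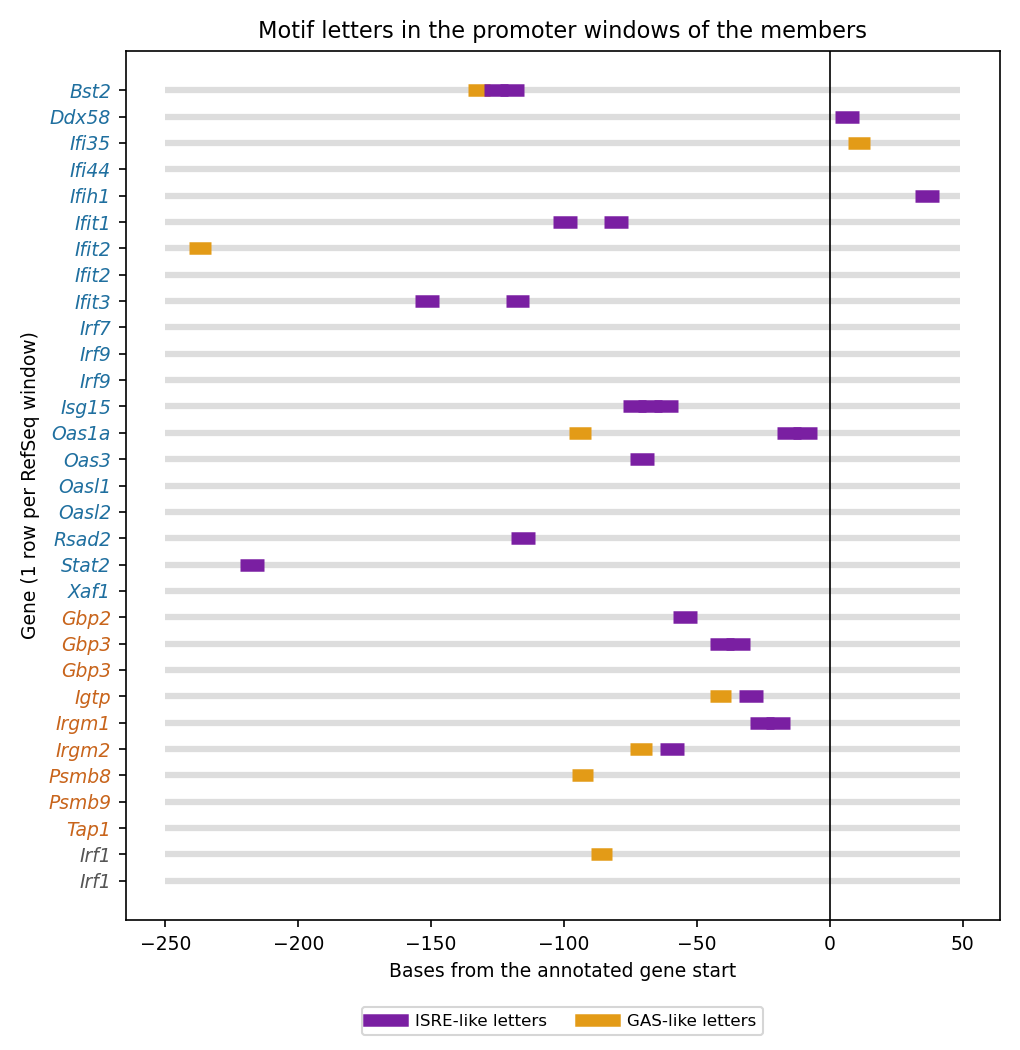
ISRE-like (purple) and GAS-like (orange) letters in the RefSeq windows of 27 members, by distance in bases from the annotated gene start (0), with 1 row per window. Names are blue for antiviral genes, orange for Gbp, Irg and antigen-processing genes and grey for Irf1. Most ISRE-like letters lie before the start, and 15 genes hold them; Isg15 and Ifi44 are drawn although their signals were not analysed.

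Control replicate 2 stood apart in genes of other tissue. The 8 skeletal muscle markers were all highest there, with summed signals of 8517, 79710 and 14641 on control replicates 1, 2 and 3 and 12666, 591, 1799 and 531 on CLA replicates 1 to 4, none of them at 0. Scgb1b27, a salivary secretoglobin, was picked after its values were seen, among genes highest on that array. It gave 32909 there, 16752 on CLA replicate 1 and 75.1 to 1911 on the other arrays. The part of such tissue in the members' level was not tested, and the results that rest on this array are given with and without it.

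One gland stood above the others in the interferon-stimulated genes too, and it was the same one. All 34 measured members had their highest signal on control replicate 2, antiviral, Gbp, Irg and antigen-processing genes alike, except that centring each array on its median placed Irf1 highest on CLA replicate 3, and averaging probe sets placed Tap1 highest on CLA replicate 4. That array was the highest of the 7 for 15.5% of all genes tested. Of the 32 tested members, 27 were over 2-fold above the median of the other 6 arrays there, against 2.96% of all genes, with a median excess of 1.67 on the log2 scale and a range from 0.18 in Irf1 to 3.67 in Oas2. This gland was singled out after its values were seen, and it had eaten control chow like 2 others that did not share its level. Among the other 6 arrays, CLA replicate 1 was the highest for 25 members, control replicate 3 for 7 and CLA replicate 3 for 2. These arrays were the highest of the 6 for 13.3%, 15.8% and 24.5% of all genes tested. The lowest of the 7 was control replicate 1 for 13 members, CLA replicate 2 for 11, CLA replicate 4 for 6 and CLA replicate 3 for 4. Of all genes tested, 14.9%, 10.2%, 17.6% and 12.8% had their lowest signal on these arrays, in that order.

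**Figure D2:**
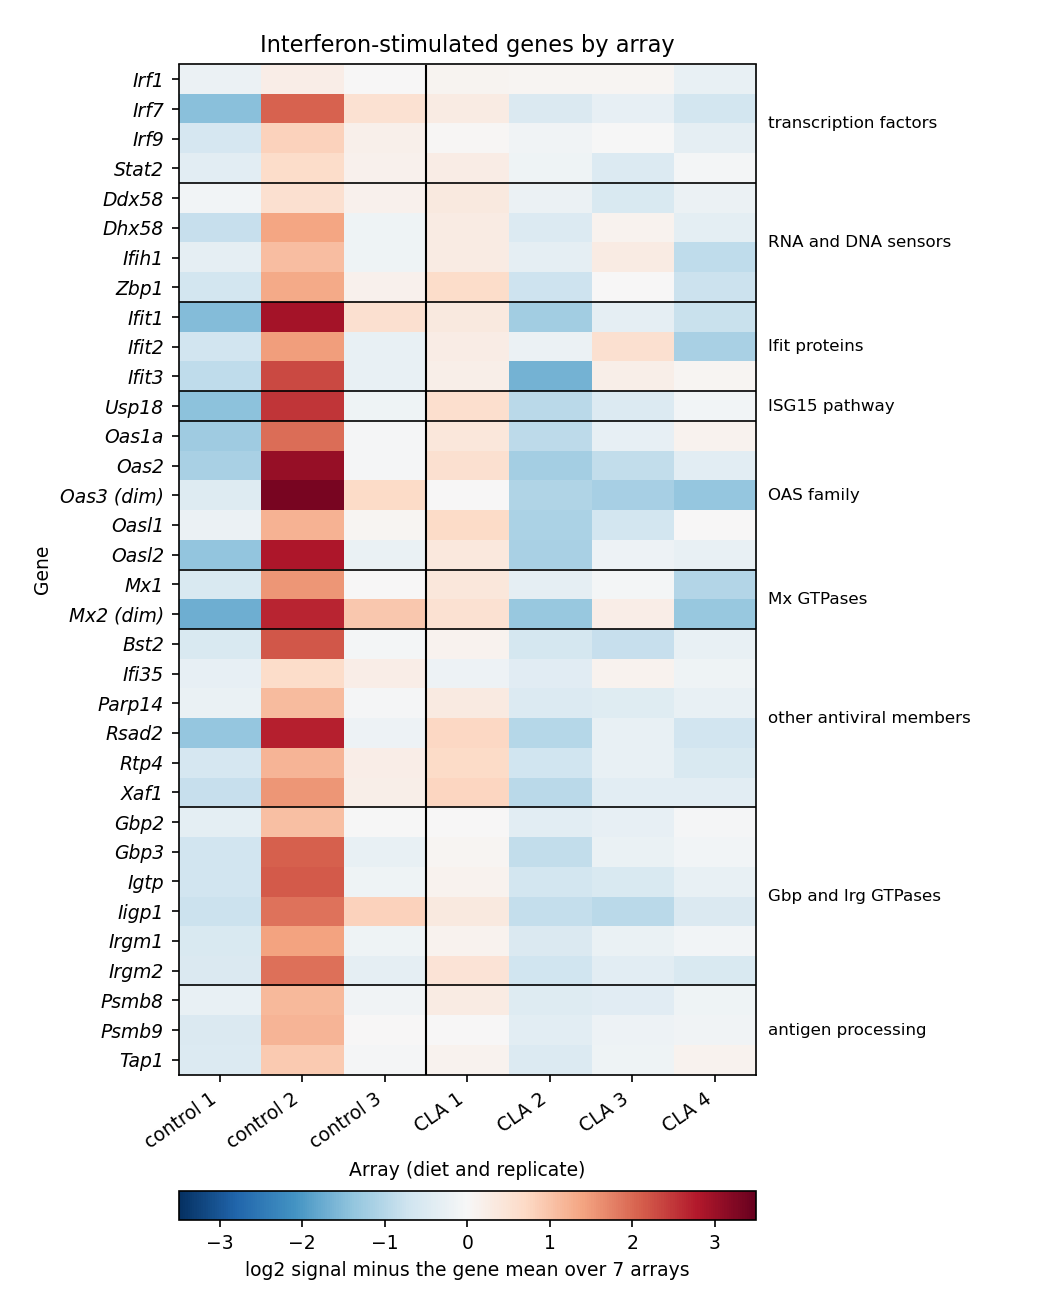
Log2 signal of each of the 34 measured members on each of the 7 arrays (columns), minus that gene's mean over the arrays, on a colour scale from blue (below the mean) to red (above). With the authors' scaling the column of control replicate 2 is red in every row, Irf1 palest, and Oas3 and Mx2 are marked as dim.

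The Ifit genes encode proteins that bind foreign RNA and block its translation. Ifit1 gave signals of 97.5, 2138 and 412 on control replicates 1, 2 and 3 and 359.6, 122, 225 and 166 on CLA replicates 1 to 4. Control replicate 2 stood 11.1-fold above the median of the other arrays, while control replicate 1, on the same diet, was the lowest of all. Ifit2 and Ifit3 stood 3.25-fold and 5.35-fold above the others on that array, and both had CLA replicate 3 next in order. Ifit3 gave 111, 1035 and 173 on control replicates 1, 2 and 3 and 238, 65.9, 240.1 and 216 on CLA replicates 1 to 4. CLA replicate 2 was far below the other 3 CLA glands, which lay close to each other. Ifit2 and Ifit3 were given beside the named genes after their values were seen, as were Oas2, Rsad2 and Irf7 below.

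The OAS enzymes make oligoadenylates that activate RNase L, which cuts viral and cellular RNA. Oas1a gave 427, 3873 and 979 in the control glands, and 1326, 529.8, 823 and 1083 in the CLA glands. Every array but control replicate 2 lay at or below 1326, and the diets overlapped throughout. Oas2 reached 3830.4 on control replicate 2, 12.7-fold above the median of the others, the largest excess among tested members. Oas3, which had the widest range of any antiviral member (4.67 on the log2 scale) but lay below the level of the test on 6 arrays, gave 25, 344 and 54.9 in the control glands, and 34.6, 16.7, 15.4 and 13.5 in the CLA glands. Its 3 control values were at or above every CLA value except that of CLA replicate 1, which lay above control replicate 1. The OAS-like genes Oasl1 and Oasl2 stood 2.48-fold and 8.40-fold above the others on control replicate 2. Across the 4 tested OAS genes the mean log2 signal on that array was 2.26 above the gene means, against 2.24 in the 3 Ifit genes, 0.94 in the 4 transcription factors and 1.09 in the 4 sensors.

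Usp18, the protease that removes ISG15 from proteins and damps the type I receptor, gave 96.7, 1475 and 235 on control replicates 1, 2 and 3 and 389.7, 136, 185 and 244 on CLA replicates 1 to 4. CLA replicate 1 came next after control replicate 2, and control replicate 1 was again the lowest. Mx1, a dynamin-like GTPase that RefSeq annotates as a transcribed pseudogene in this reference, gave 75.2, 317 and 110.2 in the control glands, and 144, 88.1, 105 and 54.1 in the CLA glands. All but 1 of these values lay above the level of the test. Rsad2, which encodes viperin, an enzyme that makes a chain-terminating nucleotide, stood 9.10-fold above the median of the others on control replicate 2 and was next highest on CLA replicate 1 (581).

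Bst2, or tetherin, which holds budding virus at the cell surface, had the smallest unadjusted p of the antiviral class between diets. Its signals were 299, 1976 and 414 on control replicates 1, 2 and 3 and 471, 281, 249 and 359 on CLA replicates 1 to 4. Without control replicate 2, the control and CLA values overlapped and spanned less than 1 log2 unit (0.92). Ifi35, an interferon-induced leucine zipper protein, gave 2773, 5319 and 3989 in the control glands, and 2981, 2555, 3725 and 3079 in the CLA glands. On this probe set control replicate 3 and CLA replicate 3 followed control replicate 2, an order unlike that of most members. A further Ifi35 probe set, given below, did not keep that order. Parp14, an ADP-ribosyltransferase, gave 663, 1659 and 745 on control replicates 1, 2 and 3 and 960.1, 559, 575 and 643 on CLA replicates 1 to 4. CLA replicate 1 was second and the other CLA glands were the 3 lowest arrays. Xaf1, a partner of the apoptosis inhibitor XIAP, and Rtp4, a receptor transporter protein, stood 3.75-fold and 2.97-fold above the others on control replicate 2.

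The sensors and transcription factors act upstream of these effectors. For all of them but Irf7, the excess on control replicate 2 was smaller than in each of the 3 Ifit genes. Other effectors lay among them, such as Ifi35, Oasl1, Parp14 and Rtp4 at 1.76-fold, 2.48-fold, 2.54-fold and 2.97-fold. Ddx58 gave 1269.8, 2009 and 1508 in the control glands, and 1744, 1185, 942 and 1181 in the CLA glands. CLA replicate 1 lay just below control replicate 2, a gap of 1.15-fold, and CLA replicate 3 was the lowest. Ifih1 (MDA5, a sensor of long double-stranded RNA), Dhx58 (LGP2, their regulator) and Zbp1 (a sensor of Z-form nucleic acid that can start necroptosis) stood 2.51-fold, 3.06-fold and 3.13-fold above the others on control replicate 2. Irf7, the factor that amplifies interferon alpha production, stood 5.48-fold above, from 262 on control replicate 1 to 3043 on control replicate 2. Stat2 and Irf9, parts of the type I complex, stood 1.69-fold and 1.83-fold above. Irf1 gave 1264, 1689.7 and 1467 on control replicates 1, 2 and 3 and 1540.5, 1513, 1511 and 1202 on CLA replicates 1 to 4. Its whole range was 1.41-fold, and CLA replicate 4 lay below the other 3 CLA glands. Irf1 thus shared the highest array with the other members but not the size of the excess.

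The Gbp and Irg GTPases attack the membranes around intracellular pathogens. Iigp1, an Irg GTPase, gave 1118, 7097 and 3298 on control replicates 1, 2 and 3 and 2385, 1055, 988 and 1338 on CLA replicates 1 to 4. Control replicates 2 and 3 and CLA replicate 1 were the 3 highest arrays, and the other 4 lay together at or below 1338. Igtp (also Irgm3) gave 505, 3580.2 and 726 in the control glands, and 870.1, 519, 552 and 668 in the CLA glands. Control replicate 2 was 5.89-fold above the median of the others, which spanned only 0.79 on the log2 scale. Gbp2 gave 716, 1854 and 891 on control replicates 1, 2 and 3 and 906, 692, 742 and 869 on CLA replicates 1 to 4, and its other 6 arrays spanned 0.39 on the log2 scale, the narrowest of the class. Gbp3, with the widest range of the class (2.95 on the log2 scale), gave 198, 1335 and 261 in the control glands, and 327, 173, 265 and 292 in the CLA glands. For Igtp, Gbp2 and Gbp3 alike, control replicate 2 was alone and the diets overlapped among the remaining arrays. Irgm1 and Irgm2 stood 3.03-fold and 5.16-fold above on that array.

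The antigen-processing members feed peptides to MHC class I, and were also highest on control replicate 2. Psmb8, an immunoproteasome subunit, gave 1500.4, 3938 and 1652 in the control glands, and 2219.8, 1321, 1372 and 1619.8 in the CLA glands. CLA replicate 1 was second and CLA replicates 2 and 3 were the lowest, and control replicate 2 stood 2.53-fold above the median of the others. Psmb9, another subunit of the immunoproteasome, and Tap1, which with Tap2 forms the peptide transporter of the endoplasmic reticulum, stood 2.52-fold and 2.01-fold above the other arrays on control replicate 2.

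**Figure D3:**
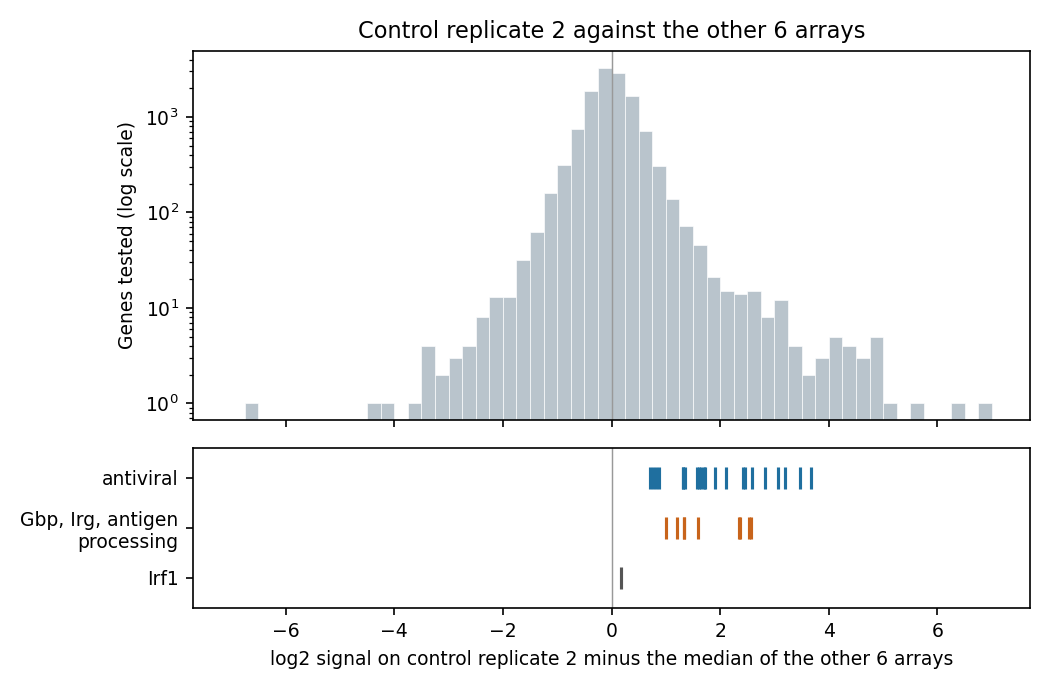
Upper panel: number of all 12497 tested genes (log axis) by log2 signal on control replicate 2 minus the median of the other 6 arrays. Lower panel: each tested member as a tick, from 0.18 in Irf1 to 3.67 in Oas2. All members lie right of 0, where the bulk of genes is centred.

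The 2 classes put the arrays in nearly the same order. A class score was taken on each array by centring every tested member on its own mean log2 signal and averaging the class. It was -0.78, 1.68 and 0.04 for the antiviral class on control replicates 1, 2 and 3, and 0.38, -0.70, -0.22 and -0.40 on CLA replicates 1 to 4. For the Gbp, Irg and antigen-processing class it was -0.53, 1.53 and -0.03, and 0.17, -0.58, -0.37 and -0.19. Both classes placed control replicate 2 first, CLA replicate 1 next and control replicate 3 after it, and differed in the order of CLA replicates 3 and 4 and of the 2 lowest arrays. The difference between the classes, antiviral minus the other, averaged -0.01 ± 0.21 over the control glands (SD, n = 3) and 0.01 ± 0.20 over the CLA glands (SD, n = 4). It so differed between diets by 0.01, less than the spread between glands. Among the 6 arrays without control replicate 2, the antiviral score spanned 1.16 and the other class 0.75. Gbp and Irg genes taken alone scored 1.76 on control replicate 2 and the antigen-processing genes 1.07.

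**Figure D4:**
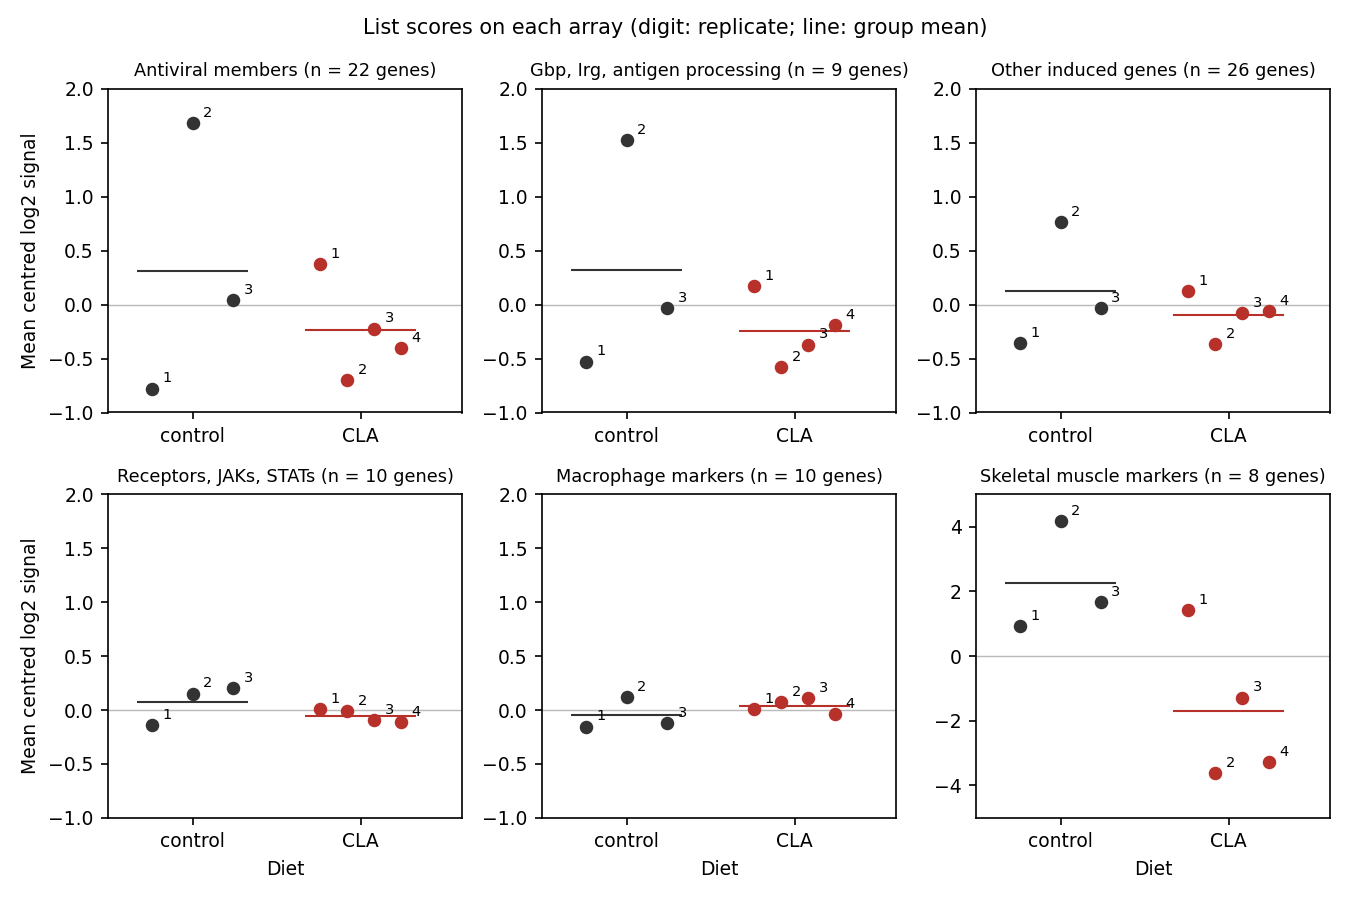
List scores, each the average of centred log2 signals over the tested genes of the list, for control (grey) and CLA (red) glands; each point is an array with its replicate digit, and lines are group means. The muscle panel has a wider axis. Both member classes put control replicate 2 on top at 1.68 and 1.53 with the diets overlapping, while the receptors, JAKs and STATs stay between -0.14 and 0.20.

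Between diets, all 32 tested members had a lower mean in CLA glands (all but Irf1 when arrays were centred on their medians), and none passed the test. The share of all genes with a lower mean was 44.7%. The median change over members was -0.49 on the log2 scale (CLA minus control), against 0.03 over all genes. With limma and Benjamini-Hochberg adjustment over all genes, 0 of 32 members passed 0.05, as did 0% of all 12497 genes. At an unadjusted p under 0.05 the count of members was also 0, against 3.01% of all genes lower and 2.38% higher in CLA glands. No member had groups that did not overlap, against 5.31% of all genes. These p-values measure the spread between these arrays, each taken as 1 mouse because the labels name a mouse as its source.

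Among the 32 tested members the largest change was that of Iigp1, -1.14 (SE 0.54, limma adjusted p = 0.904), with a 95% interval from -2.35 to 0.08. Ifit1 changed in mean by -1.13 (SE 0.85, limma adjusted p = 0.952) and Oas2 by -1.09 (SE 0.84, limma adjusted p = 0.958). Bst2 changed by -0.92 (SE 0.56, limma adjusted p = 0.931) and Igtp by -0.78 (SE 0.56, limma adjusted p = 0.949). The control mean of Ifit1 was 883 ± 1099 (SD, n = 3) and its CLA mean 218 ± 103 (SD, n = 4), so the SD of the control glands was larger than their mean. Ifi35 and Ddx58 had smaller standard errors, with changes of -0.35 (SE 0.22, limma adjusted p = 0.931) and -0.35 (SE 0.23, limma adjusted p = 0.942). For Irf1 the change was -0.03 (SE 0.16, limma adjusted p = 0.999), with an interval from -0.38 to 0.33. The antiviral class had a median change of -0.52 and the Gbp, Irg and antigen-processing class one of -0.42, with 22 of 22 and 9 of 9 lower in CLA glands.

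Without control replicate 2 the direction was lost. On the remaining 6 arrays 23 members had a higher and 9 a lower mean in CLA glands, against 55.3% of all genes higher, and the median change was 0.08. In limma, 0 members had an unadjusted p under 0.05, against 3.04% of all genes. The change of Ifit1 became 0.0034, that of Bst2 -0.093, that of Igtp 0.078 and that of Oas1a 0.46. Iigp1 kept the lowest value of the tested members, -0.51, and Ddx58 (-0.17), Oasl1 (-0.19) and Ifi35 (-0.12) were also below 0. The antiviral class then had 15 of 22 members higher in CLA glands and the Gbp, Irg and antigen-processing class 7 of 9.

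The titles carry experiment numbers that start with 27 on control replicate 1 and CLA replicate 1 and with 28 on the other 5 arrays, and the sources used here do not say what they mean. In the pair with 27, all 32 tested members were higher on CLA replicate 1 than on control replicate 1, against 50.9% of all genes, with a median difference of 0.90. It was 1.10 in the antiviral and 0.67 in the Gbp, Irg and antigen-processing class, with no replicate behind it. Among the 5 arrays with 28, which include control replicate 2, all 32 were lower in CLA glands, against 46.4% of all genes, with a median of -1.22. There 20 had an unadjusted p under 0.05 in limma, against 4.19% of all genes lower in CLA glands, and 0 passed adjustment. With the title number as a block over all 7 arrays the median was -0.49. Without control replicate 1 the median was -0.93, and 11 members, all lower in CLA glands, had an unadjusted p under 0.05 in limma, against 4.64% of all genes.

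**Figure D5:**
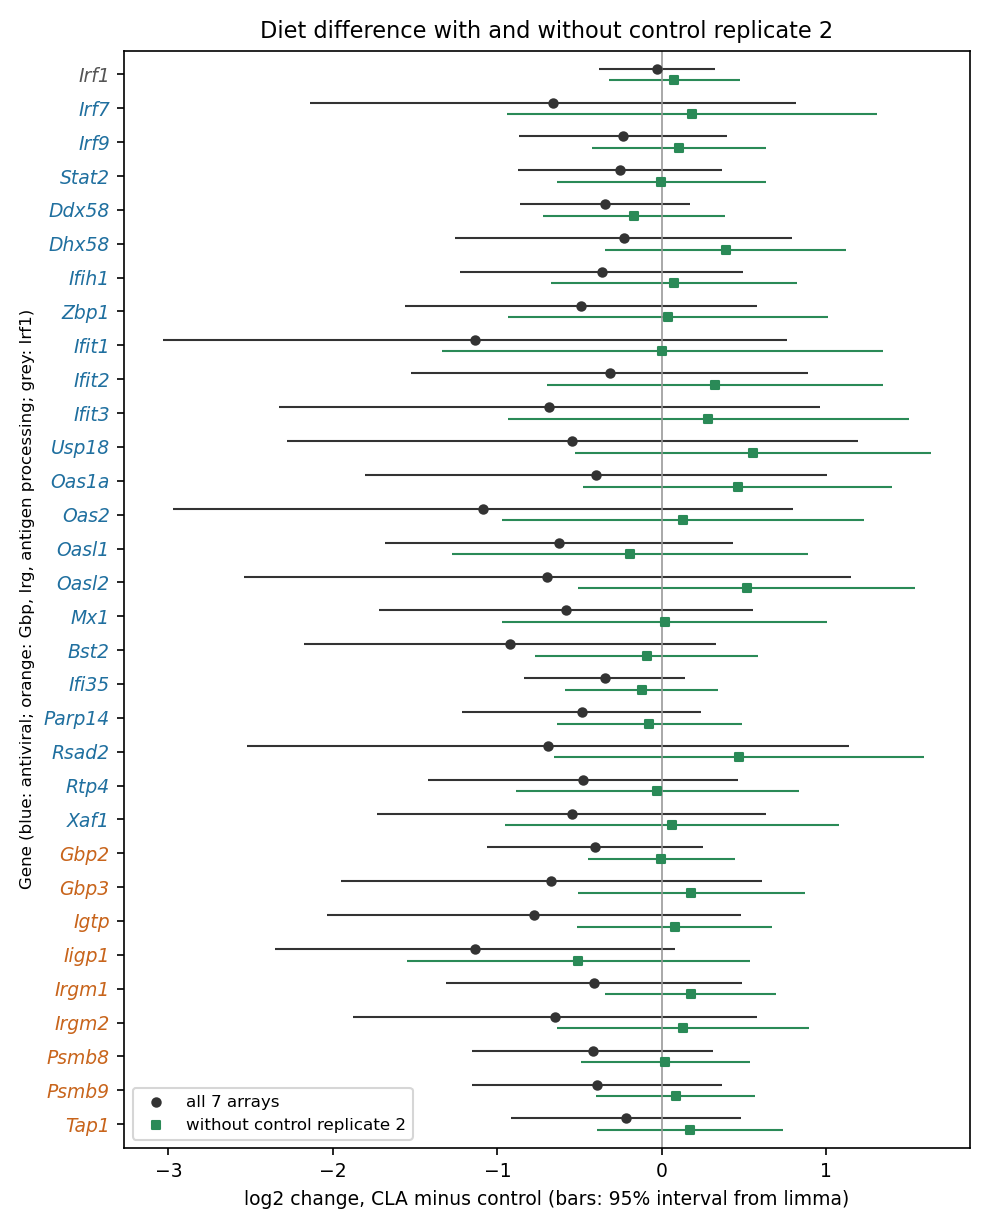
Log2 change, CLA minus control, of the 32 tested members, with 95% intervals from limma, over all 7 arrays (circles) and without control replicate 2 (squares). Names are blue for antiviral genes, orange for Gbp, Irg and antigen-processing genes and grey for Irf1. With the authors' scaling all circles lie below 0 with intervals that cross it, and 23 of the 32 squares lie above 0.

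Genes around the members in the pathway shared this array order only in part. No interferon gene reached the test: the 9 measured ligand genes were all below 57.7 in mean, and none was highest on control replicate 2. Ifnb1 gave 42.8, 51.4 and 35.8 in the control glands, and 44.6, 24.7, 54.6 and 52 in the CLA glands, and Ifng gave 17.1, 6.44 and 17.9 in the control glands, and 12.6, 1.79, 1.35 and 1.83 in the CLA glands. Neither placed control replicate 2 above every other gland, and signals as low as these are near the background of the method. Of the 10 tested receptors, JAKs and STATs, 7 had a lower mean in CLA glands, 4 were highest on control replicate 2, 0 were over 2-fold above the others there and 0 passed limma's test. Ifngr1, a chain of the interferon gamma receptor, had a change of -0.49 (limma adjusted p = 0.904), and Stat3, which carries cytokine signals through gp130, one of -0.46 (limma adjusted p = 0.912). Ifngr1 was highest on control replicate 2, but by 1.38-fold over the others. Of 15 tested sensing adaptors, kinases and IRFs, 7 were lower in CLA glands, 5 were highest on control replicate 2 and 0 were over 2-fold above there. The 2 of smallest p were Ikbke, a kinase of IRF3, at 0.95 and Cgas, the sensor of cytosolic DNA, at 0.38 (limma adjusted p = 0.910 and 0.931). Of the 6 tested negative regulators, Trim30a alone was highest on control replicate 2, at 3.01-fold. The phosphatase gene Ptpn6 and Socs3, an inhibitor of cytokine receptors, had changes of 0.24 and 0.35 (limma adjusted p = 0.952 and 0.974).

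Other interferon-induced genes outside the member list showed the same array on top. Of 26 tested, 21 were highest on control replicate 2, 11 were over 2-fold above the others there, and 21 had a lower mean in CLA glands, with a median change of -0.16. Cmpk2, a mitochondrial nucleotide kinase, gave 505, 1333 and 714 on control replicates 1, 2 and 3 and 458, 429, 390.2 and 345 on CLA replicates 1 to 4. All 3 control values lay above all 4 CLA values, yet the change of -0.96 did not pass (limma unadjusted p = 0.00934, adjusted p = 0.703). Trim21, a ubiquitin ligase that binds antibody-coated virus, had a change of -0.42 (limma adjusted p = 0.904). Among the 6 tested further Gbp and gamma-induced genes, 4 were highest on control replicate 2, among them Gbp6 at 6.88-fold, and 6 were lower in CLA glands. Gbp6 and Ido1, the tryptophan-degrading enzyme, had changes of -1.04 and -0.58 (limma adjusted p = 0.944 and 0.931). Of 11 tested class I antigen-processing genes, 8 were highest on control replicate 2, with 1 over 2-fold, B2m, the light chain of MHC class I, at 2.18-fold. Tap2 and Tapbp, the partner of Tap1 and the tapasin that joins the transporter to MHC class I, had changes of -0.47 and -0.35 (limma adjusted p = 0.904 and 0.966).

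Markers of other cell types were set beside the members on the same arrays, with signals summed over the tested genes of each list. Muscle markers and members shared the 3 arrays at the top (control replicates 2 and 3 and CLA replicate 1), but control replicate 1, the lowest in members' score, came next in muscle signal. The summed signals of macrophage markers were 19662 to 24858 in control and 21694 to 27809 in CLA glands, and 0 of 10 were highest on control replicate 2. Of the plasmacytoid dendritic cell markers, 4 of 6 were tested, with sums over these 4 of 2189 to 4320 and 2050 to 2740. That list holds the member Bst2, its only tested gene highest on control replicate 2. Only 4 of 10 listed T cell markers were tested, with sums of 707 to 1165 in control and 827 to 1367 in CLA glands, and 1 of 4 was highest on control replicate 2. That was Cd3g, a chain of the T cell receptor complex named after its values were seen, at 164 there, 2.11-fold above the median of the others and against at most 123 elsewhere. The other CD3 chains, Cd3e and Cd3d, were below the level of the test. NK cell markers summed to 339 to 570 and 213 to 424, with 2 of 4 tested highest on control replicate 2. All 6 tested adipocyte markers had lower means in CLA glands, with sums of 42647 to 51957 and 13483 to 34251, and 3 of 6 were highest on control replicate 2. On that array 5 of the 6 were over 2-fold above the median of the other 6 arrays, as were 8 of 8 muscle markers. The count was 1 of 4 for the plasmacytoid dendritic cell, T cell and NK cell lists each, and 0 for the remaining marker lists. Most of the other 6 arrays were CLA glands, so this measure also takes in differences between diets. Neutrophil markers summed to 2807 to 7048 in control and 2092 to 6683 in CLA glands, with 2 of 3 tested highest on control replicate 2. Markers of basal epithelium and of proliferation had their lowest scores on that array instead, with median differences of -1.44 and -1.09 from the other 6 arrays on the log2 scale. The basal sums were 4144 to 7259 in control and 7432 to 9344 in CLA glands, and the proliferation sums 9549.5 to 20916 and 17402 to 20553. Of the other lists, 2 of 6 endothelial and 1 of 3 tested dendritic cell markers were highest on control replicate 2, and 0 of the luminal, milk protein, B cell and lymph node stroma markers. The 3′ to 5′ ratio of Actb, a sign of RNA quality, was 1.88 on control replicate 2. It was 2.78 on CLA replicate 3 and 1.41 to 1.65 on the remaining arrays. That of Gapdh was 0.97 on control replicate 2, 1.40 on CLA replicate 3 and 0.76 to 0.90 on the remaining arrays. The part of these cell types and of RNA quality in the members' values was not tested.

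Most further probe sets of the members also placed control replicate 2 highest. Another 19 probe sets were annotated to 13 of the member genes. Of the 12 at or above the level of the test, 11 were highest on control replicate 2 and all 12 had a lower mean in CLA glands. Of the 7 below it, 4 were highest on that array. The level applies to a mean that includes control replicate 2, so a probe set could reach it through that array. A Psmb8 probe set among the 12 gave 118 there, 110 on CLA replicate 4 and 39.1 to 57.7 on the others. The exception above that level was a probe set of Ddx58, at 342 on control replicate 2 and 343 on CLA replicate 1. The probe sets read for Gbp2 and Ifi35 carry suffixes of the array maker (x and s) for probes that other transcripts may share. A further Gbp2 probe set without such a suffix gave 1908 on control replicate 2 against 568 to 895 elsewhere. For Ifi35, the probe set without such a suffix gave 858 on control replicate 2 and 751 on CLA replicate 1. It was lowest on control replicate 3 (556) and CLA replicate 3 (547).

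Members with and without the promoter letters overlapped in their excess on control replicate 2. Stat2 and Ddx58 had the smallest excess of the measured members with ISRE-like letters in their windows, at 1.69-fold and 1.64-fold. Oasl2 and Irf7 had the largest of those with a window but no such letters, at 8.40-fold and 5.48-fold. At the other ends, Ifit1 and the dim Oas3, with ISRE-like letters, stood 11.1-fold and 16.9-fold above the other arrays. Irf1 and Ifi35, with none, stood 1.13-fold and 1.76-fold above. A relation between letters and excess was not tested.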

How the data were processed

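RNA was labelled with biotin by Affymetrix protocols, per the labels. The authors deposited a linear MAS5 signal intensity for each of 45101 probe sets of each array, per the submitters' processing notes, which name MAS5. Each array's mean intensity, with 2% trimmed at each end, was already about 500.003. The sources used here give neither the MAS5 version nor a genome build. The number of arrays limits the precision.

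Values under 1 were raised to 1 before log2. Of the probe sets, 34945 had 1 gene symbol, updated through a RefSeq table of GRCm38.p6 used for names. The brightest per gene was kept. Genes whose mean reached the probe sets' 40th percentile entered limma 3.58.1 under R 4.3.3 (lmFit, eBayes with trend, CLA minus control, two-sided), and p-values were adjusted by Benjamini-Hochberg over 12497 genes at 0.05. The script was checked on simulated data. Figures used matplotlib 3.10.9 in Python 3.11.15. Promoters came from RefSeq, GRCm38.p6; 9 members had no window in the table.

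Members and lists were chosen with earlier results of these data known. Named genes were, in each class, the 3 of smallest p, the widest range and the brightest of each subgroup, with Irf1 and the 2 of smallest p in each pathway list. The rule also named tested ligands, but none was tested, and Ifnb1 and Ifng were named outside it after their values were seen. Another gene of the rule is not reported here. Alternatives were quantile normalization, median centring, pseudocounts of 16 and 64, means of probe sets, other filters and eBayes settings, title numbers and single arrays left out. The counts of members lower in CLA glands and highest on control replicate 2 were added to these after seeing the data.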

Additional observations from a re-analysis of the deposited data

Results flagged for a closer look

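In 37 groups of 4 CLA glands examined for an array that stood apart from the rest, 2 did, where chance gives about 1 in 20. Ifit3 gave a signal of 65.9 on CLA replicate 2, with the other 3 CLA glands between 216 and 240.1. On the log2 scale the gap was 0.918 of the group's whole range. Irf1 gave 1202 on CLA replicate 4, with the other 3 between 1511 and 1540.4, a gap of 0.922 of the log2 range. The control group, with 3 arrays, was too small for this check. The score over all tested members moved in opposite directions in the arrays grouped by title number. CLA minus control was 1.00 between the single pair of arrays whose numbers start with 27, and -1.22 among the 5 whose numbers start with 28. This difference was not tested.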

How the results depend on the processing

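The count of genes called between diets, 0 of 12497, stayed 0 under the alternatives of scaling, pseudocount, probe set, filter and eBayes, and was 1 among the 5 arrays with title numbers starting with 28, with no member called. No member was called under any alternative. With single arrays left out it ran from 0 to 17, the 17 without CLA replicate 4 and 2 without control replicate 1. The median change over members stayed below 0 in all alternatives except the pair starting with 27 (0.90) and the 6 arrays without control replicate 2, and ran from -0.93 to 0.077 with single arrays left out. The difference in change between the classes was 0.46 in the pair starting with 27 and -0.17 among the 5 arrays starting with 28. With single arrays left out it ran from -0.11 to 0.10. The count of members lower in CLA glands was 32 of 32 in the full data and 0 in that pair, and ran from 9 to 32 with single arrays left out, the 9 without control replicate 2. Median centring turned Irf1 to 0.052, placed its highest signal on CLA replicate 3, and left the other members lower in CLA glands. With the mean of its probe sets, Tap1 was highest on CLA replicate 4.

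The sign of 23 members turned with an array left out, 21 of them only without control replicate 2. Their log2 changes with single arrays left out ran as follows: Dhx58 -0.70 to 0.39, Gbp3 -1.20 to 0.18, Ifih1 -0.62 to 0.075, Ifit1 -2.22 to 0.0034, Ifit2 -0.75 to 0.32, Ifit3 -1.33 to 0.28, Igtp -1.34 to 0.078, Irf1 -0.13 to 0.075, Irf7 -1.59 to 0.18, Irf9 -0.59 to 0.11, Irgm1 -0.80 to 0.18, Irgm2 -1.09 to 0.13, Mx1 -1.02 to 0.017, Oas1a -1.13 to 0.46, Oas2 -1.97 to 0.13, Oasl2 -1.59 to 0.52, Psmb8 -0.67 to 0.021, Psmb9 -0.76 to 0.084, Rsad2 -1.57 to 0.47, Tap1 -0.53 to 0.17, Usp18 -1.41 to 0.55, Xaf1 -1.10 to 0.063, Zbp1 -0.95 to 0.035. No paired analysis was possible because the labels carry no replicate number shared by the diets. The number of arrays, 3 and 4, limits every comparison, and low MAS5 signals carry background, which touches Oas3, Mx2 and the interferon genes.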

Other observations

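Control replicate 2 also carried the highest signals of secretory genes outside every list above, chosen here after their values were seen. Scgb1b27, which encodes a salivary androgen-binding protein, gave 204, 32909 and 1911 on control replicates 1, 2 and 3 and 16752, 75.1, 321 and 413 on CLA replicates 1 to 4. Scgb2b27, its partner subunit, gave 2331, 35331 and 12664 in the control glands, and 23614, 948, 5240.2 and 1479 in the CLA glands. Both were highest on control replicate 2 and next highest on CLA replicate 1. The kallikrein gene Klk1b1 gave 29.1, 343 and 315 on control replicates 1, 2 and 3 and 81.4, 10.6, 62.2 and 49.9 on CLA replicates 1 to 4, with control replicate 3 close to control replicate 2.

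Genes of IgA-producing plasma cells and of IgA transport were also chosen after their values were seen. They and the last genes of this paragraph were picked among genes highest on control replicate 2, so that array's place on top was set by the choice. Jchain, which joins IgA monomers, gave 189, 2167 and 367 in the control glands, and 1093, 122, 201 and 753 in the CLA glands. Igha, the IgA heavy chain, gave 738, 8931 and 2053 in the control glands, and 5103, 403, 1030.3 and 3667 in the CLA glands. Pigr, the receptor that carries IgA across epithelium, gave 2137, 15354 and 3761 in the control glands, and 8639, 2119, 1669 and 3811 in the CLA glands. Each was highest on control replicate 2 and second on CLA replicate 1, and each overlapped between diets. Sp110, an interferon-induced nuclear body gene, gave 18.7, 342 and 17.7 in the control glands, and 176, 73.6, 132 and 24.1 in the CLA glands. Clec2d, a ligand of an NK cell receptor, gave 77.1, 983 and 190, and 126, 141, 216 and 240 in the same order. Both were also highest on control replicate 2, and Sp110 lay below 57.7 on control replicates 1 and 3 and CLA replicate 4.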
